A study of Mus musculus with 4 samples.

Results

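The metabotropic glutamate receptors are G-protein-coupled receptors for glutamate, and 6 of their genes, Grm2, Grm3, Grm4, Grm5, Grm7 and Grm8, are described here of 21933 genes counted. They were chosen by symbol, as a receptor family, and were followed through every cell population and in both genotypes. The data were single-nucleus RNA-seq of the right cerebral cortex of adult male mice on a C57Bl/6J background. The CrT-KO animals (CrT-/y) were hemizygous for a deletion of part of Slc6a8, the X-linked gene of the creatine transporter, in every cell, and the Control animals were their wild-type littermates (CrT+/y). Neither group was treated. Each of the 4 libraries came from 1 animal, so that there were 2 animals per genotype, nuclei were sorted by flow cytometry before loading, and the question was whether loss of the transporter changed expression within the cell types of the cortex.

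Metabotropic receptors answer glutamate through second messengers rather than by opening a channel of their own. Grm5 encodes mGlu5, a group I receptor that sits mostly at the edge of the postsynaptic density, couples to Gq and phospholipase C, and is held there by Homer and Shank scaffolds. Grm2 and Grm3 encode the group II receptors and Grm4, Grm7 and Grm8 encode group III receptors, all of which couple to Gi/o, lower cyclic AMP and restrain transmitter release. mGlu3 is also known from glia, and mGlu7 and mGlu8 lie mainly in presynaptic terminals.

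The libraries held 8282 to 9295 barcodes and 51507483 to 65240843 UMIs (unique molecular identifiers, 1 per captured RNA molecule), with a median of 5548 to 6700.5 UMIs per nucleus, and any 2 libraries shared 12 to 19 barcodes. After 1236 likely doublets were removed, 34458 nuclei remained, of which 32035 fell into 7 classes named from marker genes and 2423 stayed in clusters without a name. Neurons were further split into 8 excitatory and 5 inhibitory subclasses, again by markers, with 3695 neurons left out. The members were kept out of the genes used for clustering. One of the 5 inhibitory subclasses, MSN-like, carried markers of striatal projection neurons, which are not cortical, and its 2553 nuclei were a large share of the 6168 inhibitory nuclei. Over all nuclei 348 and 334 UMIs of Slc6a8 were left in the Control animals and 101 and 79 in the CrT-KO animals, a log2 fold change of −1.95 (SE 0.15, adjusted p = 0.0117, edgeR's quasi-likelihood test), so the labels and the targeted gene did not conflict.

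Levels are given as CPM, the UMIs of a gene scaled to a fixed total of UMIs of the same population in the same library. The counting reference took whole gene bodies, introns included, and the members differ widely in length, so levels of different genes are compared only as CPM per 100 kb of gene. On the GRCm38 assembly, Grm5 lies on chromosome 7 from 87584168 to 88134907 on the plus strand and spans 550.7 kb. Grm3 lies on chromosome 5 from 9485541 to 9725170 on the minus strand (239.6 kb), and Grm2 on chromosome 9 from 106643095 to 106656082 on the minus strand (12988 bases, the shortest member). The group III genes are Grm7 on chromosome 6 from 110645581 to 111567230 on the plus strand (921.7 kb), Grm8 on chromosome 6 from 27275119 to 28135178 on the minus strand (860.1 kb), and Grm4 on chromosome 17 from 27422387 to 27521403 on the minus strand (99017 bases). None of the annotated genes that overlap a member was itself counted in the files. Over all barcodes Grm7 had 689592 UMIs, Grm5 497872, Grm8 143417, Grm3 116248, Grm4 5382 and Grm2 987, so precision differed by orders of magnitude between members. Per 100 kb, the mean level in excitatory neurons was 376 CPM for Grm5, 356 for Grm7, 198 for Grm3, 87.5 for Grm8, 43.5 for Grm2 and 20.4 for Grm4. Scaled by length, Grm2 thus stood above Grm4 in these neurons although its UMIs were far fewer, an order that rests on the scaling. Whether UMIs rise in proportion to gene length in these data was not tested.

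**Figure D1:**
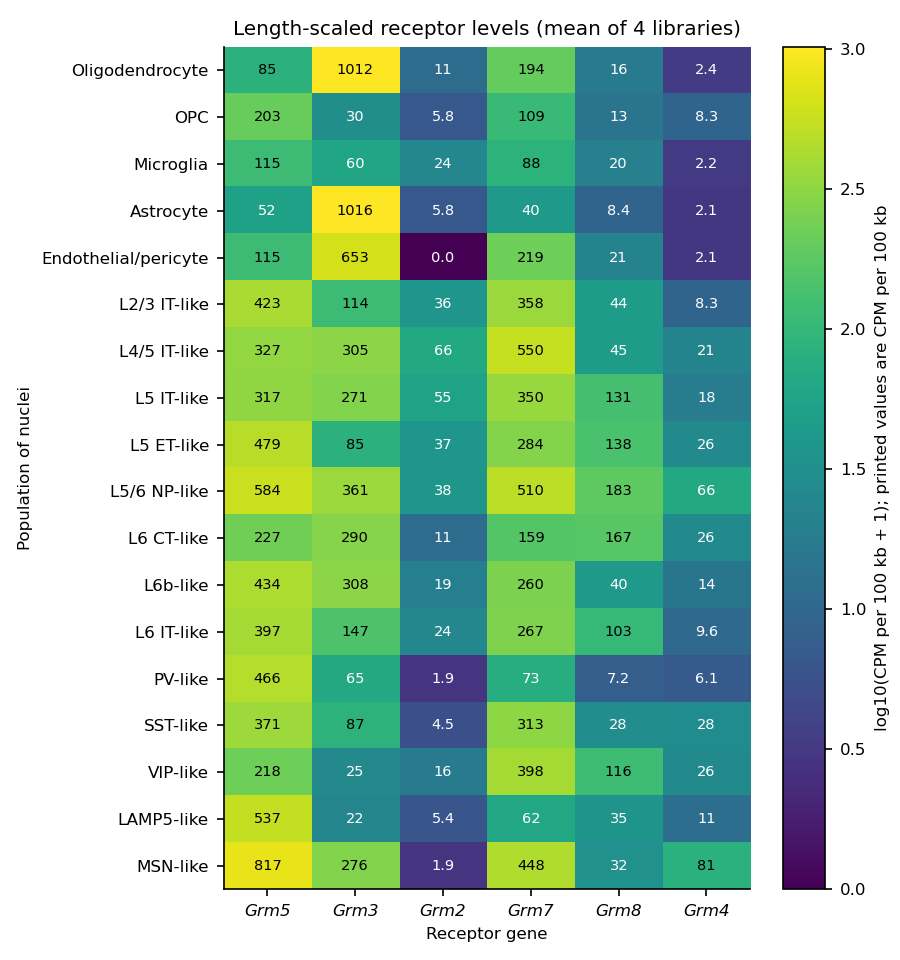
Mean level of each receptor gene (columns) in each population of nuclei (rows), as CPM per 100 kb of gene averaged over the 4 libraries, on a color scale with the value printed in each cell. Grm3 reaches 1012 in oligodendrocytes and 1016 in astrocytes and Grm5 reaches 817 in MSN-like nuclei, while Grm2 stays at or below 65.6.

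Grm5, the postsynaptic group I receptor, was read in every neuronal population and was highest in MSN-like nuclei. There it gave 4219 and 4654 CPM in the Control libraries and 4406 and 4728 in the CrT-KO libraries, and all 4 libraries lay above every library of the next population, L5/6 NP-like (near-projecting neurons), at 3025 to 3352 CPM. Among cortical interneurons it was high in LAMP5-like nuclei (2956 CPM, mean of 4 libraries) and PV-like nuclei, the fast-spiking parvalbumin type (2564 CPM), and lowest in VIP-like nuclei (1202 CPM). Among excitatory subclasses L6 CT-like nuclei, the corticothalamic cells of layer 6, had the lowest level, 1252 CPM, against 2638 CPM in L5 ET-like nuclei, the extratelencephalic cells of layer 5. A level in a sum of nuclei cannot tell fewer expressing nuclei from less RNA per nucleus.

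Grm3, one of the group II pair, was highest in astrocytes and oligodendrocytes, but not in all glia. Astrocytes gave 2451 and 2537 CPM (Control) and 2382 and 2368 CPM (CrT-KO), and oligodendrocytes 2412 and 2383 CPM (Control) and 2263 and 2647 CPM (CrT-KO). The ranges of these classes overlapped each other, and both lay above the class of endothelial cells and pericytes (1171 to 1781 CPM), which in turn lay above every neuronal population. Microglia had 125 to 156 CPM. Oligodendrocyte precursors (OPC) had 33.2 to 91.5 CPM, so Grm3 was low in the precursors and high in the mature class. Among neurons L5/6 NP-like nuclei had the highest mean (865 CPM) and LAMP5-like (52.9 CPM) and VIP-like nuclei (59.6 CPM) the lowest. With doublets kept, a setting in which all nuclei were clustered and named anew, the LAMP5-like value was 161 CPM and the OPC value 152 CPM. The endothelial and pericyte class was small, 253 nuclei, and its UMIs from the astrocyte marker list summed to 2651 to 3504 CPM, against 31980 to 36125 CPM in astrocytes, with 6 of the 16 markers present in at least 10% of its nuclei. Whether astrocyte RNA had a part in its Grm3 level was not tested.

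Grm2, the other group II gene, was the rarest member. Excitatory neurons held 199 and 200 UMIs (Control) and 271 and 184 UMIs (CrT-KO), or 5.30 to 6.245 CPM. These were most of its 987 UMIs over all barcodes. The whole inhibitory class gave 2, 5, 9 and 5 UMIs in the same order of libraries, and 0 of 253 nuclei of endothelial cells and pericytes had a UMI, which allows a share of up to 1.19%. L4/5 IT-like nuclei, intratelencephalic cells of layers 4 and 5, had the highest mean (8.52 CPM) and L6 CT-like nuclei the lowest of the excitatory subclasses (1.38 CPM), and neighbors in that order overlapped throughout.

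Grm7, the presynaptic group III receptor with the lowest affinity for glutamate, was the most abundant member in UMIs. L4/5 IT-like nuclei gave 4707 and 5201 CPM (Control) and 5304 and 5058 CPM (CrT-KO), overlapping L5/6 NP-like nuclei at 4505 to 4810 CPM, and both subclasses lay above MSN-like nuclei at 3787 to 4313 CPM. It split the interneurons: VIP-like nuclei had 3669 CPM and SST-like nuclei, the somatostatin type, 2886 CPM, while PV-like nuclei had 675 CPM and LAMP5-like nuclei 575 CPM, or 1025 and 1216 CPM with doublets kept. L6 CT-like nuclei were again the lowest excitatory subclass, at 1462 CPM. The LAMP5-like and PV-like subclasses were therefore high in Grm5 and low in Grm7.

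Among the named populations Grm8, a second presynaptic group III receptor, was highest in some of the deep-layer neurons. L5/6 NP-like nuclei gave 1477 and 1597 CPM (Control) and 1599 and 1619 CPM (CrT-KO), above L6 CT-like nuclei (1379 to 1470 CPM), which lay above L5 ET-like nuclei (1131 to 1277 CPM). From there down, L5 ET-like, L5 IT-like, VIP-like and L6 IT-like nuclei overlapped in turn. L2/3 IT-like and L4/5 IT-like nuclei, with means of 380 and 385 CPM, stood well below these, and PV-like nuclei had 62.3 CPM (128 CPM with doublets kept). L6b-like nuclei, although deep, had a mean of 346 CPM (238 to 417 CPM), so not all deep-layer subclasses were high. The L4/5 IT-like mean covers a sub-cluster of 206 nuclei at 2179 to 2986 CPM, described below. L6 CT-like nuclei thus combined high Grm8 with the lowest excitatory levels of Grm5 and Grm7.

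Grm4, the third group III gene, was rare and was highest in MSN-like nuclei, with 315 and 254 UMIs (Control) and 348 and 201 UMIs (CrT-KO), or 67.2 to 99.4 CPM. L5/6 NP-like nuclei overlapped them at 59.1 to 81.0 CPM and lay above SST-like nuclei at 21.5 to 34.0 CPM. L2/3 IT-like (8.20 CPM) and PV-like nuclei (6.07 CPM) were among the lowest neurons. Because MSN-like nuclei made up much of the inhibitory class, its Grm4 level of 39.2 CPM was above that of all 4 of its cortical interneuron subclasses, which lay between 6.07 and 27.6 CPM.

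**Figure D2:**
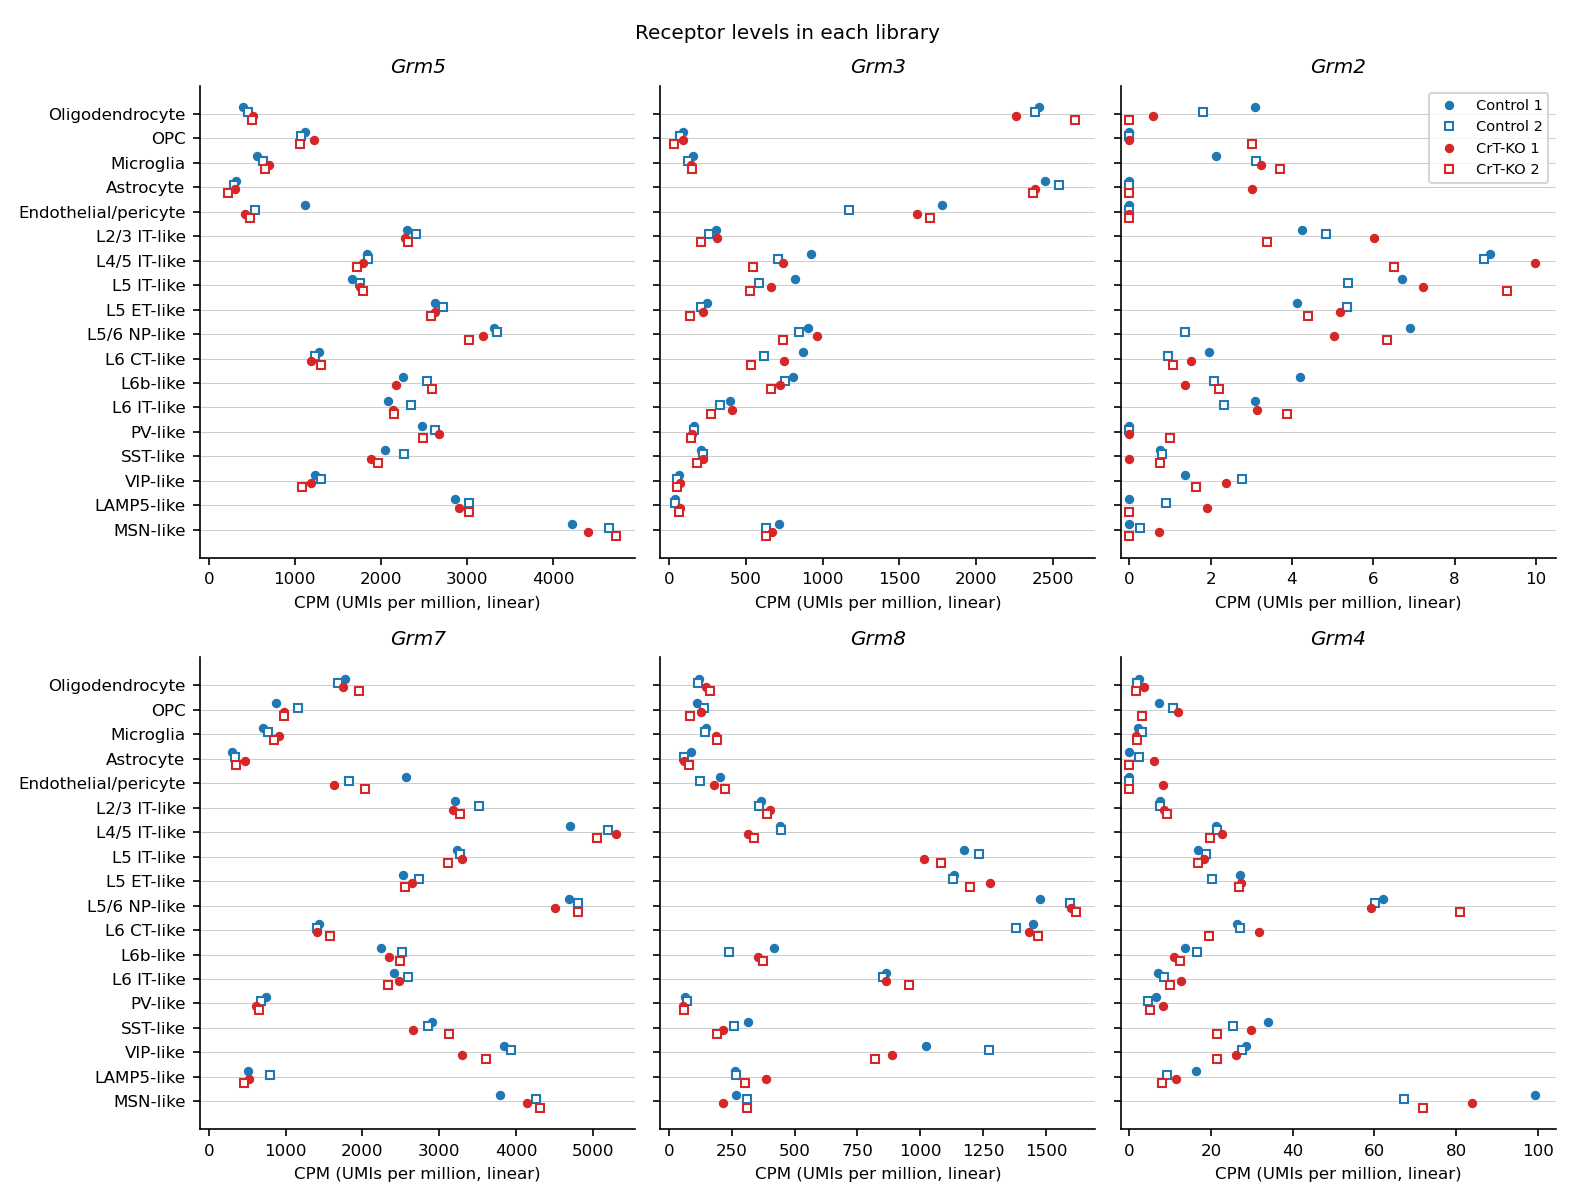
CPM of each receptor gene (1 panel per gene, linear axis from 0) in each population (rows), with 1 point per library colored by genotype. The points of the 4 libraries lie close together within most populations compared with the distance between populations, and all of the MSN-like points of Grm5 lie at or above 4219 CPM.

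In droplet data, RNA set free from broken cells gives UMIs in nuclei that do not express a gene, and microglia were taken as the class to read that background from. Nuclei were thinned to 1000 UMIs each, which left out 1194 of 2232 microglia but 12 of 17099 excitatory neurons, and the share with at least 1 UMI of a gene was taken as the mean of the 4 libraries. In microglia, with a median depth of 879.5 to 1033 UMIs, the thinned share was 49.6% for Grm7, 43.2% for Grm5, 15.7% for Grm8, 11.4% for Grm3, 0.16% for Grm2 and 0% for Grm4, where 0 of 1038 nuclei allows a share of up to 0.289% (at full depth 53.4%, 44.4%, 15.6%, 12.2%, 0.31% and 0.22%). In excitatory neurons, with a median depth of 7323 to 8860 UMIs, it was 90.2% for Grm7, 80.5% for Grm5, 42.6% for Grm8, 33.8% for Grm3, 2.14% for Grm4 and 0.66% for Grm2 (at full depth 99.7%, 99.3%, 76.8%, 80.2%, 13.9% and 4.70%). The excitatory share was above the microglial one for every member. For Grm2 the margin was small, since its excitatory libraries ranged from 0.54% to 0.83% and 1 microglial library, CrT-KO replicate 1, reached 0.65%.

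The same reading set other classes above or below the background. Grm3 was present in 84.3% of thinned oligodendrocytes and 76.0% of thinned astrocytes, far above its microglial share. Grm5 in astrocytes (23.4%) and in oligodendrocytes (35.9%) and Grm7 in astrocytes (30.7%) were below the microglial shares of those genes. These values could not be told from background. Grm7 in oligodendrocytes, at 66.7%, and Grm5 in OPC, at 62.6%, were above the microglial share. Among interneurons Grm7 in PV-like (43.3%) and LAMP5-like nuclei (36.2%) lay below the microglial share after thinning. At full depth, where these nuclei hold more UMIs than microglia, the shares were 82.6% and 74.7%, against 53.4% in microglia. The order thus turned with depth, and the thinned share cannot tell a low level of Grm7 there from background.

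A second reference used the ratio of each member to the summed UMIs of 15 excitatory marker genes, since RNA from one neuronal source keeps its genes in 1 ratio. These markers stood in oligodendrocytes at 12.8% to 15.9% of their level in excitatory neurons, in microglia at 16.4% to 19.3%, in astrocytes at 19.7% to 21.1% and in OPC at 25.7% to 29.9%. Relative to them and to excitatory neurons, Grm3 was 37.1-fold higher in oligodendrocytes, 24.8-fold higher in astrocytes and 7.10-fold higher in endothelial cells and pericytes. Grm7 in oligodendrocytes was 3.97-fold higher, against 1.42 in microglia and 0.55 in astrocytes. Grm5 was 1.92-fold higher in OPC and Grm8 1.31-fold higher in oligodendrocytes, close to the 1.76 and 1.27 of the same genes in microglia. Oligodendrocyte Grm3 and Grm7 and astrocyte Grm3 were therefore in excess of the neuronal markers. By this ratio OPC Grm5 and oligodendrocyte Grm8 were near the microglial values. For OPC Grm5 the readings differed, since its thinned share of 62.6% lay above the 43.2% of microglia. The source of Grm5 UMIs in OPC was not tested.

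**Figure D3:**
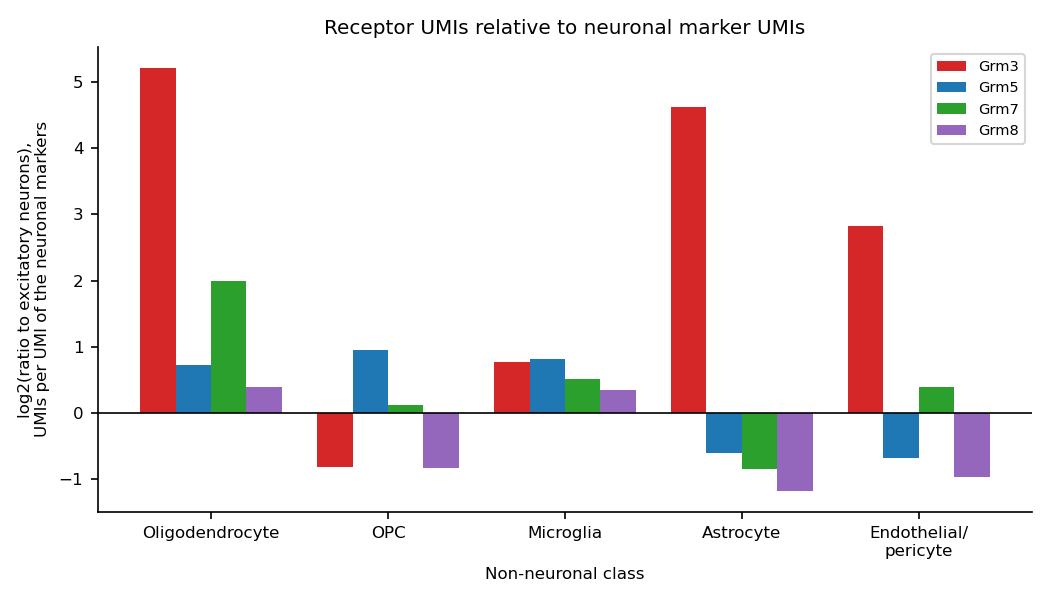
UMIs of Grm3, Grm5, Grm7 and Grm8 per UMI of the excitatory marker genes in each non-neuronal class, as log2 of the ratio to excitatory neurons, where 0 is the ratio found in excitatory neurons. Grm3 in oligodendrocytes (37.1-fold) and astrocytes (24.8-fold) and Grm7 in oligodendrocytes (3.97-fold) stand above the values of microglia.

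Patterns across populations were compared over the 5 non-neuronal classes and the 13 neuronal subclasses, as the Pearson correlation of mean log2(CPM + 1) over these 18 populations, among 11559 genes. The populations share libraries and differ in depth, and the values are a description. The genes most like Grm5 were Myh10 (r = 0.94), Sptbn4 (0.94) and Ksr2 (0.92), and those most like Grm3 were Arap2 (0.88), Stard4 (0.85) and Klf9 (0.80). For Grm2 they were Hkdc1 (0.91), Rad51ap2 (0.91) and Nrn1 (0.90), the last an excitatory marker. In group III, Grm7 was most like Begain (0.80), Efcc1 (0.78) and Nap1l1 (0.78), Grm8 like Pcsk1 (0.88), Kcnt2 (0.85) and Nr4a1 (0.84), and Grm4 like Rit2 (0.90), Myt1l (0.90) and Eml5 (0.89). Among the members themselves the closest pair was Grm4 and Grm5 (0.79) and the most opposed pair Grm3 and Grm5 (−0.38).

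The genotypes were then compared within each population on UMIs summed per library, with edgeR's quasi-likelihood test over all genes and a threshold of 0.1 on the Benjamini-Hochberg adjusted p. Each p rests on the spread between 2 animals per genotype. Over all nuclei no member passed (0 of 6, with 0 at an unadjusted p under 0.05 and 0 by DESeq2), against 0.02% of 15018 genes tested. No member had both CrT-KO libraries on one side of both Control libraries either, where 10.2% of genes lay above and 28.3% below. The 95% intervals of the log2 fold change were −0.07 to 0.18 for Grm5, −0.07 to 0.19 for Grm7, −0.06 to 0.19 for Grm8, −0.28 to 0.06 for Grm3, −0.09 to 0.41 for Grm4 and −0.16 to 0.49 for Grm2. The intervals were narrowest for Grm5, Grm7 and Grm8 and widest for Grm2, the gene with the fewest UMIs. The median over the 6 members was 0.06, beside −0.01 over all genes.

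In excitatory neurons no member passed the test (0 of 6), and 0.179% of 13967 genes did. Grm5 gave 2038 and 2125 CPM in the Control libraries and 2049 and 2068 in the CrT-KO libraries (log2 fold change 0.03, 95% interval −0.11 to 0.17). Its sign depends on the scaling between libraries and turned to −0.02 without the TMM factors. Grm7 gave 3140 and 3401 CPM against 3292 and 3288 (0.06, interval −0.09 to 0.21), and Grm8 755 and 744 CPM against 746 and 767 (0.06, interval −0.08 to 0.20). The groups of these 3 genes overlapped. Grm4 was the only member whose groups lay apart, with 19.2 and 17.8 CPM in the Control libraries and 24.2 and 19.6 in the CrT-KO libraries (log2 fold change 0.29, SE 0.11, adjusted p = 0.473), while 11.5% of all genes lay apart upward and 29.5% downward. Grm2 gave 5.62 and 5.44 CPM against 6.245 and 5.30, a log2 fold change of 0.11 (SE 0.14, adjusted p = 0.869).

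Grm3 in excitatory neurons varied between the animals of each genotype. Its levels were 570 and 448 CPM in the Control libraries and 506 and 376 CPM in the CrT-KO libraries, a log2 fold change of −0.16 (SE 0.12, adjusted p = 0.763), and the groups overlapped. The order recurred across the 8 excitatory subclasses, where CrT-KO replicate 2 was lowest in 8, Control replicate 1 highest in 5, and CrT-KO replicate 1 above Control replicate 2 in 7. The subclasses come from the same animals, so this is 1 pattern of 4 libraries. The fold change was negative in all 8 subclasses and was nearest the threshold in L4/5 IT-like nuclei (−0.30, SE 0.13, adjusted p = 0.525; 926 and 709 CPM against 743 and 548) and in L5 ET-like nuclei (−0.33, SE 0.14, adjusted p = 0.613). Without CrT-KO replicate 1, which leaves 1 CrT-KO animal, the Grm3 value was −0.37 in the excitatory class. It was −0.37 to −0.69 in the L4/5 IT-like, L5 IT-like, L5 ET-like and L6 CT-like subclasses. Without CrT-KO replicate 2 the class value was 0.03. Without Control replicate 2 the L5 IT-like value was −0.42. The excitatory fold change of Grm3 therefore moved with the animals that were kept. In a fit with the replicate number as a block it passed (adjusted p = 0.0987), as is described in the closing section.

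In inhibitory neurons no member passed (0 of 5 tested, Grm2 being too rare, against 0.0569% of 12307 genes). Grm5 and Grm7 had log2 fold changes of 0.01 each, Grm3 and Grm4 of −0.06 each. Grm8 gave 276 and 313 CPM in the Control libraries and 253 and 262 in the CrT-KO libraries (−0.18, SE 0.09, adjusted p = 0.939), the only member whose groups lay apart downward, as did 18.5% of all genes, and none lay apart upward, as 14.3% did.

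In the glial and vascular classes no member passed either. In all 7 classes together 31 member tests were made, none passed by edgeR or DESeq2 and 4 had an unadjusted p under 0.05. Among all genes tested, 1265 of 13967 reached that cut in excitatory neurons, 666 of 12307 in inhibitory neurons and 611 of 9048 in oligodendrocytes. Whether the 4 exceed such shares was not tested, and they are not read as a result about the receptors. Grm8 in oligodendrocytes gave 121 and 114 CPM against 148 and 161 (0.38, SE 0.13, adjusted p = 0.397, where 0.21% of genes passed and 20.3% lay apart upward), and Grm8 in microglia 148 and 144 CPM against 188 and 192 (0.39, SE 0.17, adjusted p = 0.806, where 0.0413% passed and 17.5% lay apart upward). Both classes hold Grm8 near the neuronal background described above, and the excitatory markers in them stood at 13.4% and 12.8% (Control) and 15.9% and 12.95% (CrT-KO) of the excitatory level in oligodendrocytes and at 17.8% and 16.4% (Control) and 19.3% and 16.7% (CrT-KO) in microglia. The part of that background in the difference was not tested. Grm5 in endothelial cells and pericytes gave 1113 and 532 CPM against 418 and 480 on 26 to 65 UMIs per library (−0.81, SE 0.34, adjusted p = 0.988, where 0% of genes passed), and the fourth of these results was Grm4 in excitatory neurons. Grm3 in the classes where it was highest had log2 fold changes of −0.08 (95% interval −0.40 to 0.25, where 0.02% of genes passed) in astrocytes and 0.02 (−0.22 to 0.26) in oligodendrocytes. In OPC, where 0.0975% of genes passed, the 4 members tested had adjusted p of 0.930 or more, for example Grm5 with a log2 fold change of 0.07 (interval −0.20 to 0.34).

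**Figure D4:**
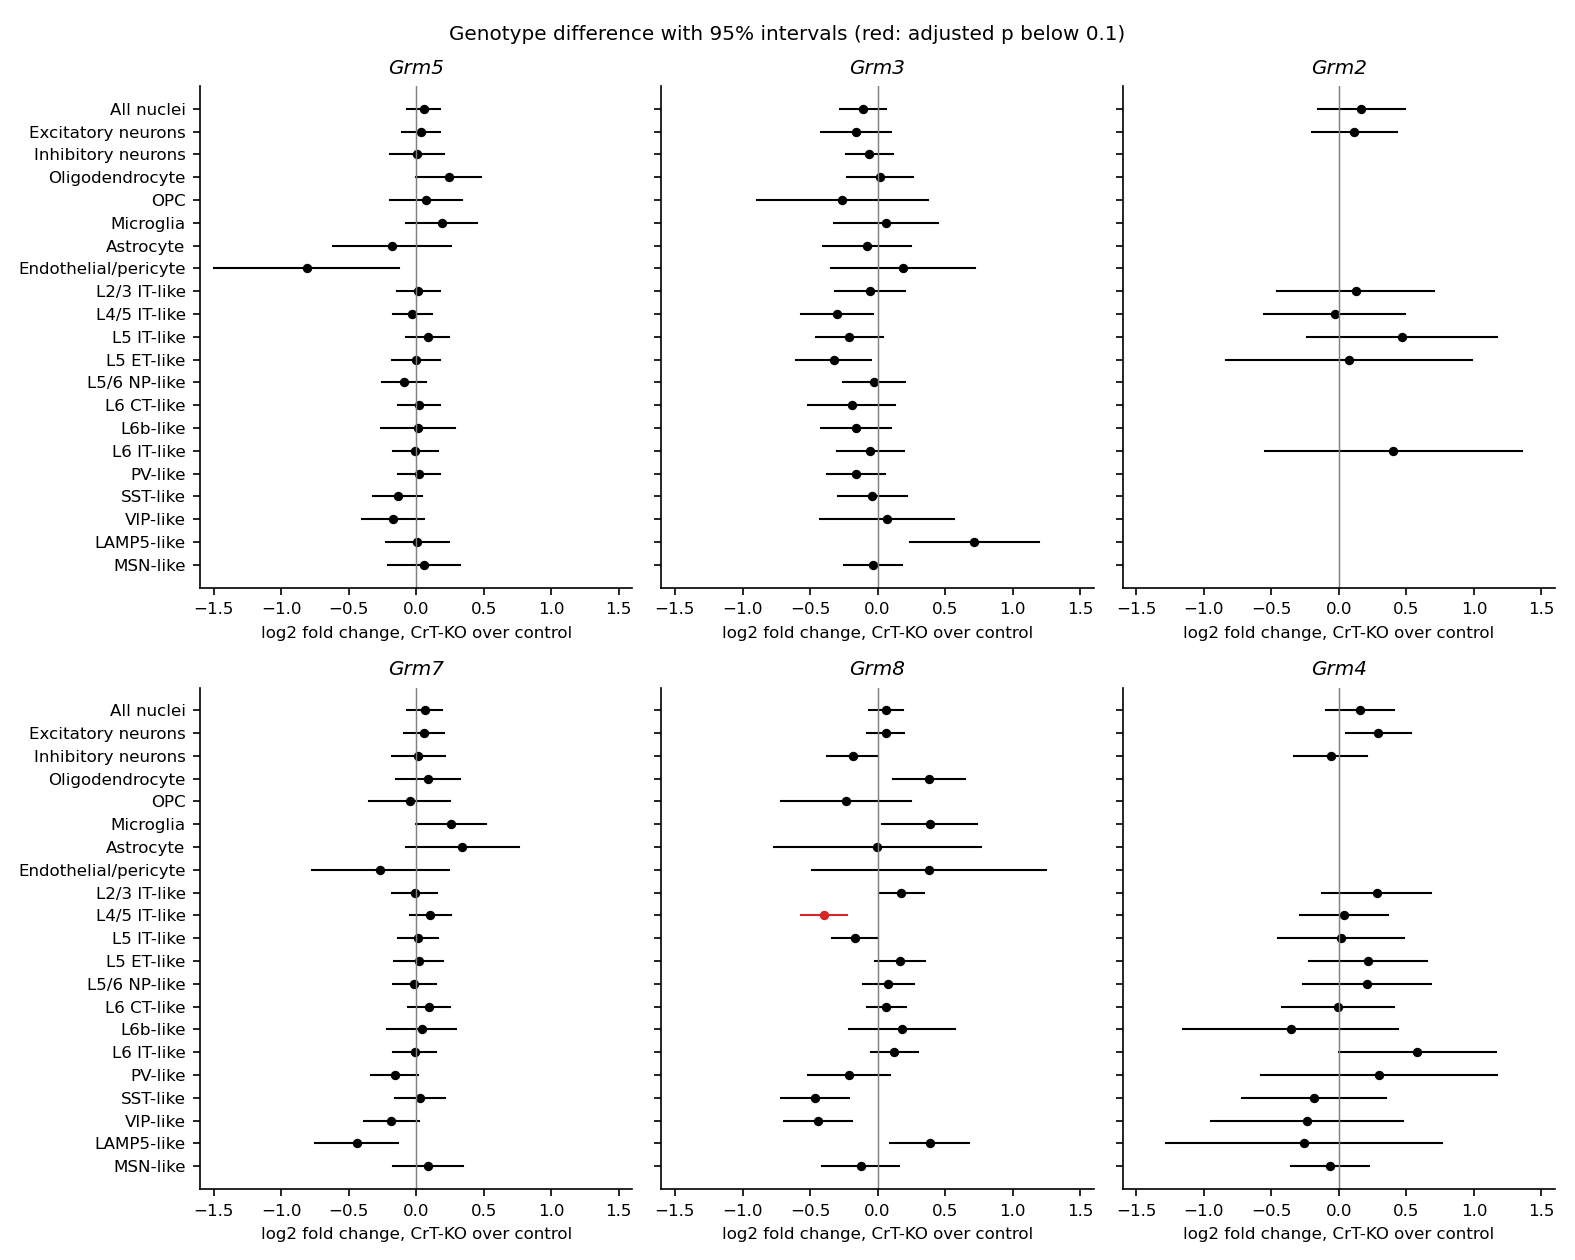
Log2 fold change of CrT-KO over Control with its 95% interval from edgeR for each receptor gene (panels) in each population where it was tested (rows), with a line at 0. One point is red for an adjusted p below 0.1, Grm8 in L4/5 IT-like nuclei (−0.40, interval −0.57 to −0.23), and the intervals of Grm5 and Grm7 are narrow around 0 in the large excitatory subclasses.

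In the 13 neuronal subclasses 70 member tests were made, of which 1 passed, beside 0.194% of 117644 tests over all genes. An unadjusted p under 0.05 was found in 9, of which 3 had a higher and 6 a lower level in CrT-KO. Some of the 9 were in excitatory subclasses and some in interneurons. Over all genes, 1265 of 13967 reached that cut in the whole excitatory class and 666 of 12307 in the whole inhibitory class. The shares within single subclasses are not given here. Whether the 9 exceed them was not tested, and the 9 are not read as a result about the receptors. No test of Grm5 or Grm7 passed in the excitatory subclasses, and every 95% interval lay between −0.26 and 0.29 for Grm5 and between −0.22 and 0.30 for Grm7. The results with a small unadjusted p were of Grm8 and Grm3, and 1 of Grm7. In L2/3 IT-like nuclei, where 0.656% of genes passed and 12.3% lay apart upward, Grm8 gave 368 and 359 CPM against 403 and 390 (0.18, SE 0.08, adjusted p = 0.524).

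Apart from the size of the change, the side on which the libraries lay can be counted. Both CrT-KO libraries were above both Control libraries in 10 of the 70 tests and below them in 15. Over all genes 12.3% to 17.3% lay above and 15.9% to 27.2% below, depending on the subclass. The member counts lay within these shares and are not read as a result about the receptors. In L2/3 IT-like nuclei Grm4 and Grm8 lay above and none below, where 27.2% of all genes lay below. In L4/5 IT-like nuclei none lay above, where 14% of genes did, and Grm5 and Grm8 lay below (25.2%). L5 IT-like nuclei had Grm2 and Grm5 above (14.7% of genes) and Grm8 below (22.4%), L5 ET-like nuclei Grm8 above (13.8%), and L5/6 NP-like nuclei Grm8 above (15.2%) and Grm5 below (18.2%). No member lay apart in L6 CT-like nuclei (13.9% above and 22.1% below over all genes) or in MSN-like nuclei (15.3% and 18%), L6b-like nuclei had Grm3 and Grm4 below (19.2%), and L6 IT-like nuclei Grm2 and Grm4 above (12.9%). The members below in interneurons were Grm3, Grm7 and Grm8 in PV-like nuclei, where 17.9% of genes lay below. Grm5 and Grm8 lay below in SST-like nuclei (20.4%), and Grm4, Grm5, Grm7 and Grm8 in VIP-like nuclei (15.9%). In LAMP5-like nuclei Grm3 and Grm8 lay above (17.3%). None of these passed the test except Grm8 in L4/5 IT-like nuclei, and the share of all genes that passed was 0.296% in L5 IT-like, 0.208% in L5 ET-like, 0.015% in L5/6 NP-like, 0.0564% in L6 CT-like, 0% in L6b-like, 0.205% in L6 IT-like, 0.0854% in PV-like and 0.0895% in MSN-like nuclei. The tests share animals, so their counts are not independent of each other.

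In interneurons, Grm8 had lower values in the CrT-KO libraries of SST-like and VIP-like nuclei and higher values in those of LAMP5-like nuclei, and none of the 3 passed the test. SST-like nuclei gave 316 and 257 CPM against 216 and 192 (−0.47, SE 0.12, adjusted p = 0.278, where 0.0493% of genes passed and 20.4% lay apart downward). VIP-like nuclei gave 1022 and 1274 CPM against 887 and 818 (−0.44, SE 0.12, adjusted p = 0.688, where 0% of genes passed and 15.9% lay apart downward). LAMP5-like nuclei gave 262 and 265 CPM against 387 and 302 (0.39, SE 0.14, adjusted p = 0.705, where 0.153% passed and 17.3% lay apart upward). In each of the 3 subclasses the genotypes did not overlap. Without Control replicate 2 the SST-like value was −0.59, and without Control replicate 1 the VIP-like value was −0.62, each with 1 Control animal left. In the same LAMP5-like nuclei Grm3 gave 37.5 and 41.9 CPM against 68.9 and 63.5 (0.72, SE 0.23, adjusted p = 0.526) on 23 to 72 UMIs per library. Grm7 there gave 517 and 799 CPM against 530 and 454 (−0.44, SE 0.15, adjusted p = 0.625) and overlapped between genotypes. Without Control replicate 1, which leaves 1 Control animal, its fold change was −0.73. The positive fold changes of Grm3 and Grm8 in LAMP5-like nuclei turned to −0.34 and −0.04 when doublets were kept and the nuclei clustered anew.

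The single member past the threshold was Grm8 in L4/5 IT-like nuclei. It had 2186 and 2552 UMIs (Control) and 2089 and 1814 UMIs (CrT-KO), or 440 and 445 CPM against 316 and 337 CPM. Both CrT-KO libraries lay below both Control libraries, as 25.2% of genes did there, and the log2 fold change was −0.40 (SE 0.08, 95% interval −0.57 to −0.23, adjusted p = 0.0627), where 0.393% of 10928 genes passed. The call depends on which nuclei are counted as L4/5 IT-like. With the members allowed among the clustering genes the subclass held 2339 nuclei, 2007 of them shared, and the fold change turned to 0.14 (adjusted p = 0.755), and at the coarser resolution of 0.8 it held 2288 nuclei, 2032 of them shared, and turned to 0.05 (adjusted p = 0.942). Without Control replicate 2 (adjusted p = 0.216) or without CrT-KO replicate 1 (adjusted p = 0.189) it also lost the call, with −0.38 and −0.34.

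The L4/5 IT-like nuclei came from 4 sub-clusters that differ widely in Grm8. A group of 206 nuclei led by Ntng1 and Adamts6 gave 2756 and 2986 CPM (Control) against 2179 and 2270 CPM (CrT-KO), with a log2 fold change of −0.37 (SE 0.12, adjusted p = 0.385, where 0.315% of genes passed). The largest group, 1043 nuclei led by Thsd7a, Scn7a, Hgf and Whrn, gave 352 and 416 CPM against 265 and 285 (−0.44, SE 0.10, adjusted p = 0.0260, where 0.953% passed). The other two groups had little Grm8: 944 nuclei led by Pld5 and Rorb gave 37 and 34 CPM against 66 and 36 (0.58, SE 0.22, adjusted p = 0.342, where 0.976% passed), and 456 nuclei gave 45 and 40 CPM against 49 and 44 (0.18, SE 0.27, adjusted p = 0.959, where 0.443% passed). The genotypes lay apart downward in both groups rich in Grm8, of which 1 passed the test, and the fold change was positive in both groups poor in it. The groups were fitted after the call in the subclass had been seen. They reuse its UMIs, most of which lie in the groups rich in Grm8. Their adjusted p therefore cannot be read at face value and is no separate support for the call.

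The richest group held 8.66% and 7.93% of L4/5 IT-like nuclei in the Control libraries and 7.09% and 7.63% in the CrT-KO libraries. With the shares of all 4 groups held at their mean the levels of the subclass were 410 and 458 CPM against 331 and 338 CPM. In the nuclei that the clustering with members assigned to L4/5 IT-like, Grm8 was far lower, at 72 and 73 CPM against 81 and 73. The 642 nuclei that only the main clustering assigned there gave 1280 and 1415 CPM against 970 and 1098. Most Grm8 UMIs of the subclass thus lay in nuclei whose subclass changed with the clustering.

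**Figure D5:**
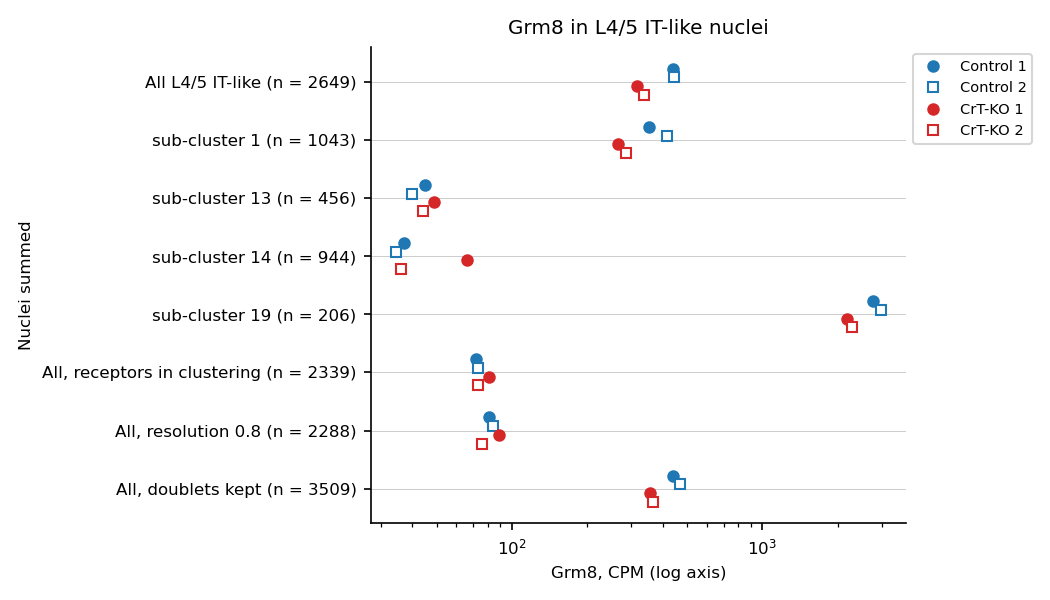
Grm8 level (CPM, log axis) in each library, colored by genotype, for the L4/5 IT-like nuclei, their 4 sub-clusters, and the nuclei assigned under other clusterings, with the number of nuclei in each row label. The CrT-KO points lie to the left of the Control points in the whole subclass (316 and 337 against 440 and 445 CPM) and in the groups rich in Grm8. Where the level is below 100 CPM they mix with the Control points, except with the receptors in clustering. There they lie just to the right (81.2 and 73.3 against 72.2 and 73.0 CPM).

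Interaction terms, with a term for each library, asked whether a genotype effect differed between classes. No member passed for inhibitory against excitatory neurons, oligodendrocytes against excitatory neurons or oligodendrocytes against inhibitory neurons, where 0.0711%, 0.476% and 0.0166% of genes did. The nearest was Grm8, whose log2 fold change was higher by 0.59 in oligodendrocytes than in inhibitory neurons (SE 0.14, unadjusted p = 0.000503, adjusted p = 0.364). Terms moved when an animal was left out, which leaves 1 animal in that genotype. Without Control replicate 1 the difference of Grm8, inhibitory minus excitatory neurons, was −0.36, against −0.24 with all libraries. Without CrT-KO replicate 1 the difference of Grm3, oligodendrocytes minus excitatory neurons, was 0.52, against 0.19 with all libraries. Pairs of subclasses were added after the values had been seen and are given in the closing section.

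The genes that act with these receptors were followed in 4 lists. In the 7 classes and over all nuclei none of their genes passed the threshold. No test of a list was run, so medians and counts of signs are not read as a shift of a list. In excitatory neurons the list of postsynaptic scaffold and trafficking partners of mGlu5 had 16 genes tested, 12 with a positive log2 fold change, and a median of 0.07 beside −0.01 over all genes. Its most abundant genes were Dlgap1 (0.04), a scaffold between PSD-95 and Shank, Frmpd4 (0.16, adjusted p = 0.495), Camk2a (0.09), the calmodulin-dependent kinase, and Homer1 (−0.10), the adaptor that binds mGlu5 itself.

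The medians of the other 3 lists in excitatory neurons lay between 0.00 and 0.04. The Gq and phospholipase C list had 17 genes tested, 9 positive, and a median of 0.04, with Plcb1 (0.04) the phospholipase, Prkcb (0.11) and Prkca (0.14) protein kinase C genes, and Itpr1 (−0.08) the receptor for inositol trisphosphate. The Gi/o, adenylyl cyclase and potassium channel list had 18 tested, 9 positive, and a median of 0.00, with Rgs7 (0.02), Adcy2 (−0.11), Kcnj3 (−0.04) and Kcnj6 (0.11). The list of trans-synaptic, presynaptic and desensitization partners of the group II and III receptors had 15 tested, 8 positive, and a median of 0.02, with Gpr158 (0.05), Nsf (0.10), Grip1 (−0.03) and Pias1 (−0.01). In the 13 subclasses 752 tests of list genes were made and 2 passed (0.266%), close to the 0.194% of all tests of genes there. Trpc6, a cation channel opened downstream of phospholipase C, had 1389 and 1111 UMIs against 907 and 782 in L2/3 IT-like nuclei and was lower in CrT-KO (−0.51, SE 0.10, adjusted p = 0.0307). Its call was lost without the filter on low counts (adjusted p = 0.217) and without Control replicate 1, CrT-KO replicate 1 or CrT-KO replicate 2 (−0.35, −0.45 and −0.58, with the smallest adjusted p = 0.184). Adcy2, an adenylyl cyclase, had 132 and 145 UMIs against 364 and 202 in LAMP5-like nuclei and was higher (0.88, SE 0.17, adjusted p = 0.0213). That call was lost with DESeq2 (adjusted p = 0.985), with the replicate block (0.85, adjusted p = 0.127), at resolution 0.8 (0.29) and without Control replicate 2 (0.55) or CrT-KO replicate 1 (0.68), and the fold change turned to −0.35 with doublets kept.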

How the data were processed

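The authors deposited raw counts, as a matrix of UMIs per gene and barcode for each of the 4 libraries, from nuclei of the right cortex of 2 Control and 2 CrT-KO mice (10x Chromium 3' v2 chemistry). By their methods and processing notes the reads were counted with Cell Ranger 3.1.0 against a pre-mRNA version of GRCm38 in which the whole gene body is an exon, so intronic reads count and long genes gather more UMIs. Barcodes were called by a UMI threshold, and how strand was used is not given in the sources used here. Seurat 3.1.4 and FastQC are also named.

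Cell labels were rebuilt here (scanpy 1.11.5): likely doublets were called per library and removed, 3000 variable genes without the members and 30 principal components were used, and Leiden clusters at resolution 1.0 were named from fixed marker lists, with naming thresholds set after the matrices had been seen. Subclass names end in "-like". Differences from the study may come from rebuilt names. Sums of UMIs for each library in each population were tested with edgeR 4.0.16 (quasi-likelihood, TMM, filterByExpr, adjusted p below 0.1 as in the study), after tests on simulated counts. Log2 fold changes are CrT-KO over Control. Where labels give only 2 animals per group, an exact permutation test could not reach a small p, so none was run for single values.

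The members and gene lists were chosen with earlier results of these data known. All 6 members are named throughout. List genes are named if past the threshold, and otherwise up to 4 per list with the highest excitatory level. Alternatives were DESeq2 1.42.0, no TMM, no filter, a threshold of 0.05, a replicate block, each library left out, doublets kept, only nuclei with at least 1000 UMIs and under 5% mitochondrial UMIs, members allowed in clustering, and resolution 0.8. With doublets kept, with members allowed and at resolution 0.8, the nuclei were clustered and named anew, so each population could gain and lose nuclei. With a library left out, its genotype held 1 animal. The p of such a fit rests on the other genotype and on spread shared over genes, so calls gained or lost there are weak. Gene positions come from a GRCm38 annotation. Limits set by counts of 0 use 3 counts and cover counting error only. Protein and promoter sequences were not used here.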

Additional observations from a re-analysis of the deposited data

Results flagged for a closer look

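The genotype effect on Grm8 was compared between pairs of neuronal subclasses by an interaction test. The pairs were chosen after the values had been seen, because the libraries of the genotypes lay apart in opposite directions in them. Of 18 such pairs over all members and classes, 6 passed the threshold, all for Grm8. The choice favored a difference in advance and was made on the same counts. The adjusted p covers the genes of a pair and not this choice, so it cannot be read at face value. The subclasses of a pair come from the same 4 animals, and the library entered the fit as a block.

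In 3 of the pairs L4/5 IT-like nuclei, where Grm8 was lower in CrT-KO, stood against another excitatory subclass. The log2 fold change was higher by 0.57 in L2/3 IT-like nuclei (SE 0.07, adjusted p = 3.96e-05 by edgeR, where 0.386% of genes passed), by 0.56 in L5 ET-like nuclei (SE 0.09, adjusted p = 0.00751, where 0.175% passed) and by 0.50 in L5/6 NP-like nuclei (SE 0.11, adjusted p = 0.0761, where 0.0952% passed). With the members allowed in clustering the same differences were 0.03, 0.04 and −0.04, and at resolution 0.8 they were −0.0064, 0.12 and 0.06. None of these passed. With doublets kept they were 0.34 (adjusted p = 0.0341), 0.51 (adjusted p = 0.0368) and 0.38 (adjusted p = 0.396), so that the last lost the call, and the cause was not tested. The difference from L5/6 NP-like nuclei also missed the threshold without any 1 of the 4 libraries, at 0.43 and 0.57 without Control replicates 1 and 2 and 0.46 and 0.53 without CrT-KO replicates 1 and 2 (adjusted p = 0.710, 0.223, 0.992 and 0.164).

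A further pair of differences set L5 IT-like nuclei, which gave 1174 and 1233 CPM of Grm8 against 1014 and 1084, below L2/3 IT-like nuclei by 0.35 (SE 0.07, adjusted p = 0.0884, where 0.13% of genes passed) and below L5 ET-like nuclei by 0.34 (SE 0.08, adjusted p = 0.0356, where 0.372% passed). With the members allowed in clustering they were 0.30 (adjusted p = 0.0951) and 0.32 (adjusted p = 0.108), at resolution 0.8 they were 0.18 (adjusted p = 0.676) and 0.33 (adjusted p = 0.0755), and with doublets kept 0.19 (adjusted p = 0.555) and 0.35 (adjusted p = 0.0197). The difference from L2/3 IT-like nuclei thus lost its call at resolution 0.8 and with doublets kept, and that from L5 ET-like nuclei with the members allowed. Without Control replicate 2 both missed the threshold, at 0.29 (adjusted p = 0.323) and 0.31 (adjusted p = 0.387), and without CrT-KO replicate 1 the difference from L5 ET-like nuclei did, at 0.24 (adjusted p = 0.489). In L5 ET-like nuclei Grm8 had 1134 and 1131 CPM in the Control libraries and 1277 and 1199 CPM in the CrT-KO libraries.

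Among interneurons the log2 fold change of Grm8 was higher by 0.83 in LAMP5-like than in SST-like nuclei (SE 0.17, adjusted p = 0.0383, where 0.0706% of genes passed). It was 0.62 with the members allowed in clustering (adjusted p = 0.186), 0.06 at resolution 0.8 and 0.21 with doublets kept, and without Control replicate 1 it was 0.67 (adjusted p = 0.221) and without CrT-KO replicate 1 it was 0.72 (adjusted p = 0.402).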

How the results depend on the processing

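Over all nuclei the count of members past the threshold was 0 under each of 11 alternatives. In the classes it was 0 except with a replicate block, where it was 2 (Grm3 in excitatory neurons, adjusted p = 0.0987, and Grm8 in oligodendrocytes, adjusted p = 0.0812), and it ranged from 0 to 1 when each library was left out. In the subclasses it was 1, and became 0 at a threshold of 0.05, with doublets kept, with members allowed in clustering and at resolution 0.8. It was 3 without the filter on low counts, 4 with the replicate block, and 1 to 4 when each library was left out. The 3 without the filter were Grm8 in L4/5 IT-like and SST-like nuclei and Grm3 in L4/5 IT-like nuclei, and the block added Grm8 in VIP-like nuclei (adjusted p = 0.0288) to these. The interactions between classes gave 0, and 0 to 1 when a library was left out.

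The replicate numbers are shared only as names. The deviations of same-numbered libraries correlated at 0.04 to 0.46 over the populations (0.41 in excitatory neurons), with 2 pairs, and the labels do not say that a number marks a litter, batch or day. Over all genes the block raised the calls from 3 to 253 over all nuclei, from 25 to 538 in excitatory neurons and from 43 to 269 in L4/5 IT-like nuclei, while DESeq2 gave 59, 70 and 31. In oligodendrocytes 19 calls became 232 with the block and 1 with DESeq2.

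Directions turned in few settings. Without TMM, Grm5 turned to −0.016 in excitatory and −0.0049 in inhibitory neurons. With doublets kept, Grm5 turned to 0.067 in endothelial cells and pericytes, Grm3 to −0.34 and Grm8 to −0.045 in LAMP5-like nuclei, Adcy2 to −0.35 in LAMP5-like nuclei, and Grm3 in astrocytes moved from 2434 to 2118 CPM. Of 107 levels above 0, 23 were higher by over 1.5 times with doublets kept and 0 were lower by as much. Among the 23 were Grm5 and Grm7 in astrocytes (285 to 685 and 368 to 867 CPM) and Grm8 in oligodendrocytes (136 to 260 CPM) and microglia (168 to 298 CPM). The nuclei were clustered anew in that setting, and the L4/5 IT-like subclass held 3509 nuclei, 2585 of them shared with the main clustering. The part of the doublets and that of the regrouping were not separated. At resolution 0.8 Grm8 turned to −0.15 in LAMP5-like and 0.050 in L4/5 IT-like nuclei, and with members in clustering to 0.14 in the latter. In single L4/5 IT-like sub-clusters it was 0.18 and 0.58, and 2 pair differences turned to −0.0064 and −0.040. With each library left out, excitatory values ranged from −0.37 to 0.025 for Grm3, −0.022 to 0.14 for Grm7 and −0.020 to 0.086 for Grm5. Inhibitory values ranged from −0.14 to 0.013 for Grm3, −0.079 to 0.12 for Grm7, −0.093 to 0.12 for Grm5 and −0.23 to 0.14 for Grm4. Grm3 ranged from −0.42 to 0.037 in L5 IT-like and −0.45 to 0.074 in L6 CT-like nuclei, and Grm8 from −0.13 to 0.60 in L6b-like nuclei, where it passed without Control replicate 1. The cause of these changes was not tested.

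Thinned to 500 UMIs, the shares of excitatory nuclei with a UMI were 74.2% for Grm7, 59.8% for Grm5, 27.1% for Grm8, 20.1% for Grm3, 0.98% for Grm4 and 0.34% for Grm2, as fewer UMIs per nucleus must give. Depth limited Grm2 and Grm4 most, and Grm2 was tested in few populations.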

Other observations

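The clusters that stayed without a class name also held these receptors. A cluster of 518 nuclei led by Foxp2, Pbx3, Tshz1 and Meis2 had Grm8 at 1103 to 1444 CPM over the 4 libraries (L6 CT-like, L5 ET-like, L5 IT-like and VIP-like nuclei overlapped this range), together with Grm7 at 3737 to 3894 CPM and Grm4 at 51.1 to 99.3 CPM. A cluster of 1302 nuclei led by Tacr1, Baiap3 and Prlr had Grm8 at 524 to 683 CPM and Grm5 at 2141 to 2866 CPM. In a cluster of 603 nuclei with mitochondrial transcripts among its leading genes, Grm8 was at 508 to 896 CPM.

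Small groups within the excitatory class held the highest values of several members. A cluster of 224 nuclei led by Angpt1 and by Ntng1 and Lef1, both on the list for subcortical neurons, had the highest Grm2 level of any cluster, 26.2 CPM on 5 to 24 UMIs per library, and the highest Grm4 level, 103 CPM on 15 to 105 UMIs. A cluster of 97 nuclei led by Zfp804b, Tshz2 and Slc26a4 had the highest Grm7 level, 7029 and 6976 CPM in the Control libraries and 9196 and 8950 CPM in the CrT-KO libraries, and the groups did not overlap. That cluster was singled out after its values were seen, and its difference was not tested. Within the MSN-like nuclei, a cluster of 2213 nuclei led by Rarb and Drd2 had the highest Grm5 level, 4310 to 4880 CPM.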
